A study of Mus musculus with 4 samples.

Results

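Histidine and serine are broken down mainly in the liver, and 10 genes of these routes were followed here in Gdown1 knockout and control livers. They were chosen by name, as the 4 enzymes of histidine degradation (Hal, Uroc1, Amdhd1 and Ftcd) and 6 enzymes of serine and glycine catabolism (Sds, Sdsl, Agxt, Shmt1, Shmt2 and Gldc), and are 10 of the 29432 genes tested. All 10 were found, each through a single probe set. The choice was made with earlier results of these data known, so the counts below describe these genes and are not independent evidence about the pathway.

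Liver RNA from C57BL/6 mice aged 8 weeks was hybridised to Affymetrix MoGene 2.0 ST arrays, with 2 arrays of the control FF and 2 of the Gdown1 KO. All animals were untreated, fed a standard diet freely and killed around midday. Gdown1 is a protein that binds RNA polymerase II and is encoded by Polr2m. The authors' deposited table calls the groups Alb-cre and f/f; Cre driven by the albumin promoter acts mainly in hepatocytes, and whole liver also holds other cells. The arrays include no animals that carry Cre with Gdown1 intact, so Cre itself and the deletion cannot be told apart.

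Histidine is degraded in a linear route. Hal, histidine ammonia lyase, removes the amino group to give urocanate, Uroc1 hydrates urocanate, Amdhd1 opens the imidazolone ring, and Ftcd passes the remaining formimino group to tetrahydrofolate, releasing glutamate. Serine leaves by several routes: Sds, serine dehydratase, turns it into pyruvate, and Sdsl is a paralog of Sds. Agxt is the peroxisomal aminotransferase that uses alanine or serine to turn glyoxylate into glycine. Shmt1 in the cytosol and Shmt2 in mitochondria move a carbon unit from serine to tetrahydrofolate and leave glycine, and Gldc is the decarboxylase of the glycine cleavage system. In mouse liver several of these enzymes, Hal and Sds among them, are known from periportal hepatocytes and from regulation by diet and hormones.

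The arrays had medians from 2.88 to 2.92 on the log2 scale, and Pearson's r over all probe sets, which are not independent replicates, was 0.984 between the FF arrays, 0.986 between the KO arrays and 0.972 to 0.976 across groups. Polr2m itself lay at 7.35 and 7.38 in FF and at 6.35 and 6.18 in KO, a log2 fold change of -1.10 ± 0.12 (SE, limma adjusted p = 0.0215); the sources used here do not give whether its probes lie in the deleted part. A background guide of 2.82 was taken as the level under which 95% of 1127 olfactory receptor genes lay, and all 10 enzyme genes had means above it. Arrays of a group are labelled as biological replicates, and the p-values measure the spread between these few samples, moderated by a spread estimated over all genes.

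The promoters of 8 of the 10 genes were matched in the RefSeq tables (GRCm38.p6), from 250 bases before to 50 after the transcript start. Those of the 4 matched genes that fell in KO, and of Ftcd, which lay higher in KO, are shown because these genes carry the comparison below. Capitals mark the letters of any of 8 short motifs, searched on both strands: TATAAA (bound by the TATA-binding protein), CCAAT (bound by factor NF-Y), TGACG (core of a cAMP response element), TGTTCT (bound by the glucocorticoid receptor), AGGTCA (bound by many nuclear receptors), GTTAAT (core of an HNF1 site), CACGTG (E box) and GGGCGG (GC box). The windows are chr10:93488518-93488817 (plus strand) for Hal, chr6:90333039-90333338 (plus) for Uroc1, chr10:93539984-93540283 (minus) for Amdhd1, chr11:60811216-60811515 (minus) for Shmt1 and chr10:76575398-76575697 (plus) for Ftcd.
Hal: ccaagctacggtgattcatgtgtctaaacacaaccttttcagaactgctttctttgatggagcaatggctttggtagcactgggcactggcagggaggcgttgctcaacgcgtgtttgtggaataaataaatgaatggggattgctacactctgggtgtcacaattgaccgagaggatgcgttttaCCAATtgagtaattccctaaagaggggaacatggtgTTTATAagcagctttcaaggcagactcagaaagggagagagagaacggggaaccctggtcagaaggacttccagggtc
Uroc1: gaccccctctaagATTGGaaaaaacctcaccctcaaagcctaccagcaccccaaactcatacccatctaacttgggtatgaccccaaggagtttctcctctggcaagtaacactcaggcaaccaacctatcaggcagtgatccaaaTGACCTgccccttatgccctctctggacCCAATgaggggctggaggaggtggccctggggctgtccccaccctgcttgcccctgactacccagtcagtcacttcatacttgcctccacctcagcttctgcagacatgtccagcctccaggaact
Amdhd1: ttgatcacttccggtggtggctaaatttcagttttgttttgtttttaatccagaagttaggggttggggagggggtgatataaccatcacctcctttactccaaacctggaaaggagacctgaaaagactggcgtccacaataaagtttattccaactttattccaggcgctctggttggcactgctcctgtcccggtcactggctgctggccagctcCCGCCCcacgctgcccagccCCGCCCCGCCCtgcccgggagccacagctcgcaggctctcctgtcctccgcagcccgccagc
Shmt1: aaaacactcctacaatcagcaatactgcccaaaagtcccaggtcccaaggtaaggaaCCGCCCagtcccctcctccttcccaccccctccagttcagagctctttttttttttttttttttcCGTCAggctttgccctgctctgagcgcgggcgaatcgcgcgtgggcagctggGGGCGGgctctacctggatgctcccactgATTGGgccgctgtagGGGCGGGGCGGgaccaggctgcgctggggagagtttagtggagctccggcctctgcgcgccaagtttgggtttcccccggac
Ftcd: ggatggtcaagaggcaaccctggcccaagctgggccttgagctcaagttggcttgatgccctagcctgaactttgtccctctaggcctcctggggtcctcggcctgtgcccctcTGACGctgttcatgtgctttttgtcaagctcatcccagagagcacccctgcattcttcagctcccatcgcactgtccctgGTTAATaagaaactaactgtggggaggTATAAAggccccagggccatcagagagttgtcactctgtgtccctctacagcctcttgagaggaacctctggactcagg

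No motif stood in all 5 of these windows. Positions are counted from the transcript start of each window, which for Uroc1 and Amdhd1 lies inside the gene bounds given below. A TATA box was found near the usual distance before the start in Hal, from -28 to -23 (on the opposite strand, read as TTTATA), and in Ftcd, from -29 to -24, against 13.6% of all 32851 promoters that hold this motif anywhere. CCAAT stood in 4 of the 8 matched windows (Hal, Uroc1, Shmt1 and Gldc) against 37.4% of all promoters, and GGGCGG in 3 (Amdhd1, Shmt1 and Gldc) against 35.7%. In Amdhd1 the GC boxes at -12 to -7 and -7 to -2 overlap by their last and first base, and so do those at -32 to -27 and -27 to -22 in Shmt1. AGGTCA was found in Uroc1 only (16.3% of all promoters), TGTTCT in Agxt only (19%) and GTTAAT in Ftcd only (7.1%). TGACG stood in Ftcd and Shmt1 (20.8%), CACGTG in none of the 8 (7.15%), and Shmt2 had no match to any of the motifs. These are letter matches in a short window and say nothing of binding. The neighbouring Hal and Amdhd1, which both fell, shared none of the motifs in these windows.

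In KO liver 5 of the 10 genes fell and 0 rose: Hal, Uroc1 and Amdhd1 of the histidine route, and Sds and Shmt1 of the serine routes (limma, adjusted p under 0.05 over all genes). Among all genes tested 0.778% were called lower and 0.996% higher, 1.77% in all. Before adjustment, 7 of the 10 were lower and 1 higher at a p under 0.05, where 7.6% of all genes were lower and 9.38% higher; these shares are the background for each unadjusted count given below. Both KO arrays lay below both FF arrays for 7 of the 10 genes, where 25% of all genes did, and above them for 1, Ftcd, where 21.6% did; groups without overlap made up 46.6% of all genes. The median log2 fold change of the 10 was -0.70, beside -0.02 over all genes. In whole liver, fewer cells of a type and less RNA per cell cannot be told apart. All 5 calls ended when all probe sets were tested (limma adjusted p from 0.0800 to 0.113) or when the replicate number was a block (from 0.0697 to 0.118). They also ended when any single array was left out, where 1 array stands for a whole group.

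**Figure D1:**
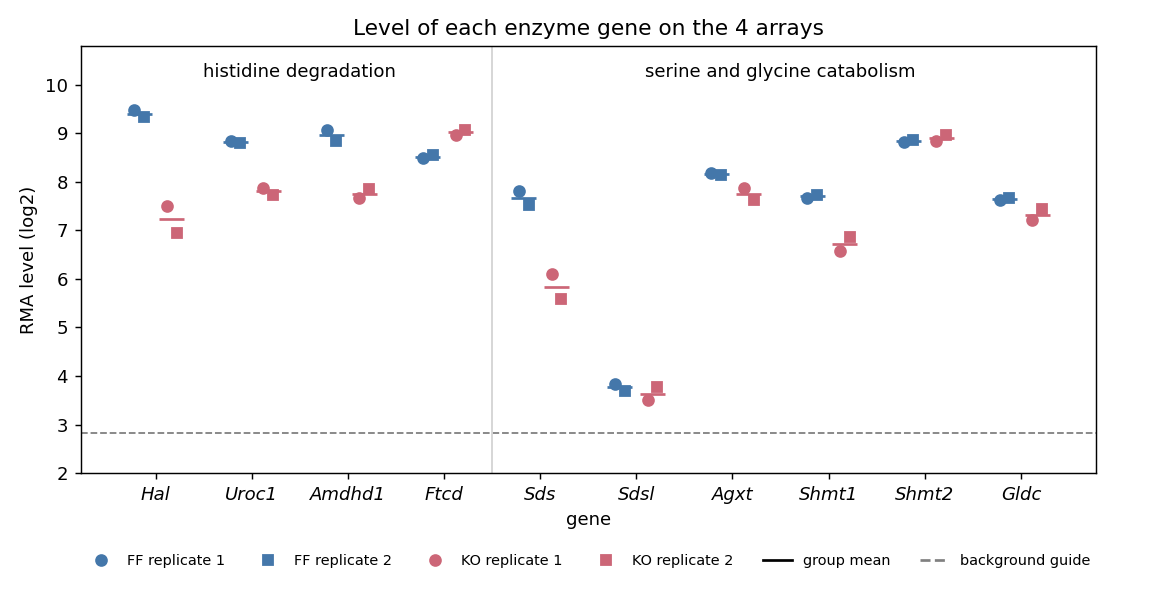
RMA level (log2, vertical axis) of each enzyme gene on the FF arrays (blue) and KO arrays (red), circles for replicate 1 and squares for replicate 2, short lines for group means, the dashed line for the background guide of 2.82. The KO points of Hal, Uroc1, Amdhd1, Sds and Shmt1 lie well below their FF points, those of Ftcd above, and those of Sdsl and Shmt2 among them.

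Hal, the entry enzyme of histidine degradation, had the largest difference of the 10. It lay at 9.48 and 9.33 in FF and at 7.51 and 6.94 in KO. Both KO arrays were far below FF, with a gap of 1.82 between the nearest arrays of the groups, and KO replicate 2 was the lower. Hal (chromosome 10, 93488768 to 93516761) thus fell by 2.18 ± 0.21 on the log2 scale, with a 95% interval from -2.69 to -1.67 and a limma adjusted p of 0.0151. Its KO level was 22.1% of that in FF.

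Uroc1, urocanate hydratase, lay at 8.84 and 8.79 in FF and at 7.88 and 7.74 in KO. The groups were tight and did not overlap. Uroc1 (chromosome 6, 90333239 to 90364551) fell by 1.01 ± 0.12, to 49.7% of the FF level (limma adjusted p = 0.0259).

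Amdhd1, which hydrolyses the imidazolone, lay at 9.07 and 8.84 in FF and at 7.66 and 7.86 in KO. Here KO replicate 1 was the lower of the pair, the reverse of Hal and Uroc1. Amdhd1 (chromosome 10, 93523338 to 93540111) fell by 1.20 ± 0.14, to 43.6% of the FF level (limma adjusted p = 0.0260).

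Ftcd, the formiminotransferase that ends the route, had its estimate on the other side of 0 and did not pass. It lay at 8.49 and 8.55 in FF and at 8.97 and 9.06 in KO, so both KO arrays were above both FF arrays by at least 0.42. The log2 fold change was 0.50 ± 0.12, with an interval from 0.21 to 0.79, an unadjusted p of 0.00572 and a limma adjusted p of 0.116. With a variance trend and robust moderation it passed, at an adjusted p of 0.0441. Ftcd (chromosome 10, 76575648 to 76590338) is thus the exception among the 4 enzymes of the route: the intervals of Hal, Uroc1 and Amdhd1 lie wholly below 0 and that of Ftcd wholly above.

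Sds showed the largest difference among the serine enzymes. It lay at 7.81 and 7.53 in FF and at 6.09 and 5.59 in KO. Both KO arrays were below FF, KO replicate 2 again the lower, as for Hal. Sds (chromosome 5, 120476547 to 120483932) fell by 1.83 ± 0.20, to 28.1% of the FF level (limma adjusted p = 0.0214).

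Sdsl, the paralog that lies next to Sds, lay at 3.84 and 3.69 in FF and at 3.50 and 3.77 in KO, not far above the background guide. The groups overlapped, and the log2 fold change was -0.13 ± 0.15 with an interval from -0.49 to 0.23 (limma adjusted p = 0.734). It was 0.01 without KO replicate 1. Low signal compresses folds, so a change of Sdsl could be understated. The within-array difference of Sds minus Sdsl was 3.97 and 3.84 in FF and 2.59 and 1.81 in KO, a change of -1.70. The groups did not overlap, and the two-sided exact permutation p was 0.333, the smallest that 2 against 2 arrays allow.

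Agxt, the glyoxylate aminotransferase, lay at 8.18 and 8.14 in FF and at 7.88 and 7.62 in KO. The KO arrays were both lower, by at least 0.26, and the log2 fold change was -0.41 ± 0.13 (interval from -0.74 to -0.08). Agxt did not pass over all genes (limma adjusted p = 0.208).

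Shmt1, the cytosolic hydroxymethyltransferase, lay at 7.67 and 7.73 in FF and at 6.58 and 6.86 in KO. Both KO arrays were below FF, KO replicate 1 the lower. Shmt1 (chromosome 11, 60788897 to 60811265) fell by 0.98 ± 0.14, to 50.6% of the FF level (limma adjusted p = 0.0376).

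Shmt2, the mitochondrial enzyme of the same reaction, lay at 8.82 and 8.87 in FF and at 8.83 and 8.97 in KO. The groups overlapped, and the log2 fold change was 0.06 ± 0.12, with an interval from -0.24 to 0.35 (limma adjusted p = 0.873). Shmt1 minus Shmt2 within each array was -1.15 and -1.14 in FF and -2.26 and -2.11 in KO, a change of -1.04 with an SD of 0.01 in FF and 0.10 in KO (n = 2 each, exact permutation p = 0.333, again the smallest possible). In the authors' deposited table Shmt2 had a log2 difference of -0.41 and Shmt1 one of -1.37, so the direction of Shmt2 differs between the tables while the lower position of Shmt1 relative to Shmt2 is in both.

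Gldc, the decarboxylase of glycine cleavage, lay at 7.63 and 7.66 in FF and at 7.22 and 7.43 in KO. The KO arrays were lower by at least 0.20, the log2 fold change was -0.32 ± 0.13, and its interval from -0.64 to -0.002 just missed 0. Gldc did not pass (limma adjusted p = 0.292).

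**Figure D2:**
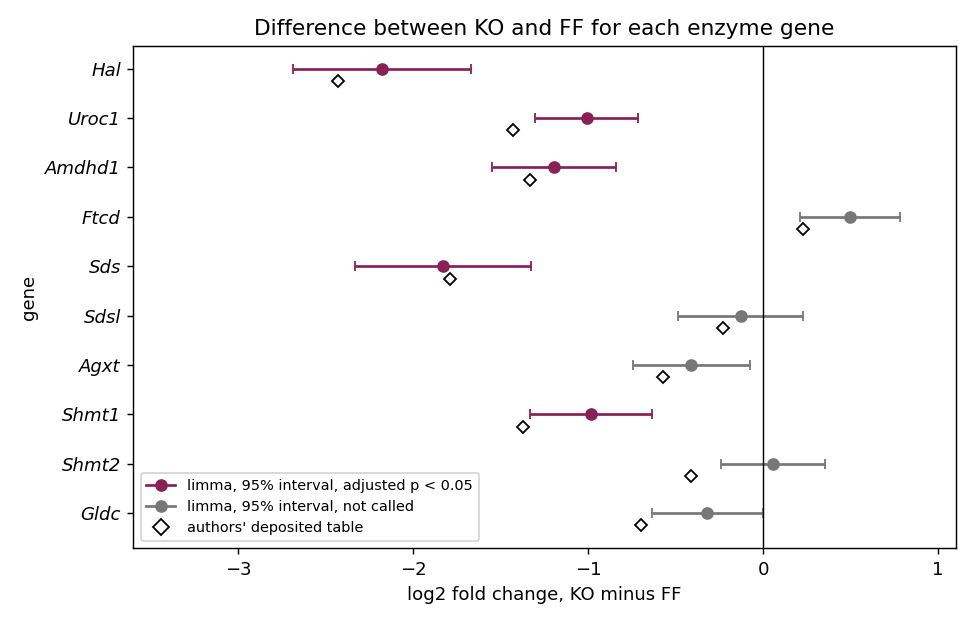
Log2 fold change of KO minus FF (horizontal axis) for each enzyme gene, as limma estimates with 95% intervals (circles, dark red where the adjusted p was under 0.05) and as the difference of averages in the authors' deposited table (diamonds). Both sources place Hal and Sds lowest and Ftcd above 0, and they differ in sign for Shmt2.

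The authors' deposited table gave the same direction for the other 9 genes. Its signed fold changes were -5.39 for Hal, -3.45 for Sds, -2.69 for Uroc1, -2.58 for Shmt1 and -2.52 for Amdhd1. For Ftcd the authors' deposited table gave 1.17, for Gldc -1.62, for Agxt -1.48 and for Sdsl -1.17. That table holds no p-values.

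Of the 10 genes, 4 lie on chromosome 10 (Hal, Amdhd1, Ftcd and Shmt2), and Hal and Amdhd1 are direct neighbours, 6576 bp apart. On the other side of Hal lies Lta4h, the gene of leukotriene A4 hydrolase, 3871 bp away, with a log2 fold change of 0.26 ± 0.12 that did not pass (limma adjusted p = 0.358). Beyond Amdhd1, 477 bp away, Ccdc38 lay near background at -0.13 ± 0.12 (limma adjusted p = 0.671). None of the 3 measured protein-coding neighbours on either side was called, and Elk3, a transcription factor gene, was highest among them at 0.45 ± 0.18 (limma adjusted p = 0.273). Around Sds, which is 3721 bp from Sdsl and overlaps the end of Plbd2, none of the 6 flanking genes was called either. Plbd2, a lysosomal protein gene, was at 0.02 ± 0.12, and Tpcn1, an endolysosomal cation channel gene, was highest at 0.65 ± 0.11 (limma adjusted p = 0.0591).

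**Figure D3:**
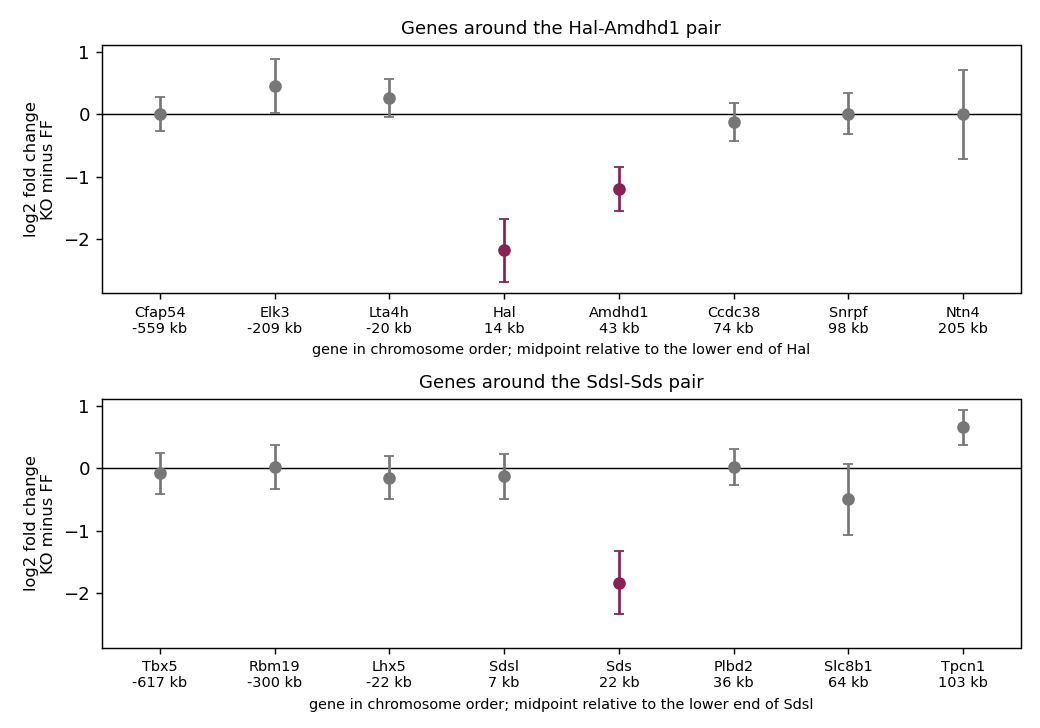
Log2 fold change of KO minus FF (vertical axis, limma estimate with 95% interval) of the genes around the Hal-Amdhd1 pair and the Sdsl-Sds pair in chromosome order, with each gene's midpoint in kb relative to the lower end of the first gene of the pair. Hal, Amdhd1 and Sds (dark red) were called lower, and none of the flanking genes was called.

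Genes whose values over the 4 arrays ran most like those of Hal, after each gene was centred on its own mean, were Nnmt, Upp2 and Dpy19l3, with root mean square differences of 0.09, 0.13 and 0.16 on the log2 scale among 18775 genes. Nnmt, nicotinamide N-methyltransferase, lay at 5.67 and 5.49 in FF and at 3.86 and 3.32 in KO, with a log2 fold change of -1.99 ± 0.20 (limma adjusted p = 0.0176). Upp2, a uridine phosphorylase, had one of -2.21 ± 0.13. The genes most like Sds were Dpy19l3, Nnmt and Itih3, the heavy chain of a plasma protease inhibitor, with differences of 0.06, 0.09 and 0.09. With 4 arrays this is a description of profiles that share the same group difference.

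Other genes of histidine handling showed no call. Of 11 measured, 0 passed in limma (0 lower and 2 higher at an unadjusted p under 0.05, beside 7.6% and 9.38% of all genes), with a median of -0.06. Hnmt, which inactivates histamine by methylation, lay at 7.39 and 7.27 in FF and at 6.39 and 7.10 in KO, with a log2 fold change of -0.59 ± 0.24. Slc15a4, a lysosomal transporter of histidine and peptides, was at 0.56 ± 0.15 (limma adjusted p = 0.150). The value of Hars2, the mitochondrial histidyl-tRNA synthetase gene, was identical on all 4 arrays, as for 21 of the 29432 genes in all.

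Among 16 genes of serine synthesis, transport and other use, 1 rose and 0 fell (limma, 2 lower and 4 higher unadjusted), with a median of 0.07. The gene that rose was Sptlc2, a subunit of serine palmitoyltransferase, which joins serine to palmitoyl-CoA to start sphingolipid synthesis. It lay at 7.45 on both FF arrays and at 8.17 and 8.26 in KO, a rise of 0.76 ± 0.11 (limma adjusted p = 0.0429). The call also ended without any single array (limma adjusted p from 0.210 to 0.374) and with all probe sets tested (0.114). Phgdh, Psat1 and Psph, the enzymes that make serine, were picked after their values were seen, had log2 fold changes of -0.30, 0.07 and 0.16 from levels near background, and did not pass.

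The partners of Gldc and other glycine enzymes had 0 calls of 16 in limma (2 lower and 0 higher at an unadjusted p under 0.05). Their median was -0.003. Tdh lay below the background guide and Bhmt not far above it, at 3.34 and 3.43 in FF. A change of such dim genes could be understated. Gcsh, the H protein of the glycine cleavage system, was at -0.61 ± 0.16 (limma adjusted p = 0.146), and Gnmt, glycine N-methyltransferase, at -0.54 ± 0.17 (limma adjusted p = 0.186). In the folate cycle, which receives the carbon units from Ftcd, the Shmt enzymes and glycine cleavage, 0 of 20 genes passed in limma (1 lower and 3 higher unadjusted), with a median of 0.05. Mtrr, methionine synthase reductase, lay just outside the threshold at 0.84 ± 0.13 (limma adjusted p = 0.0507), with 4.14 and 4.28 in FF and 4.94 and 5.15 in KO. Ggh, which trims folate polyglutamates, was at 0.61 ± 0.12 (limma adjusted p = 0.0799).

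Glyoxylate and glycerate enzymes, which share substrates with Agxt, had 0 calls of 7 in limma (2 lower and 0 higher unadjusted) and a median of -0.02. Grhpr, the glyoxylate and hydroxypyruvate reductase, was at -0.52 ± 0.13 and Prodh2, a hydroxyproline dehydrogenase, at -0.33 ± 0.13. Of 19 other amino acid catabolic enzymes 0 passed in limma (5 lower and 2 higher unadjusted), with a median of -0.10. Csad, which makes hypotaurine, was at -1.07 ± 0.34 with FF arrays at 6.69 and 5.64 and KO arrays at 5.22 and 4.97. Tat, tyrosine aminotransferase, was at -0.81 ± 0.18 (limma adjusted p = 0.103).

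Of 12 periportal genes other than these enzymes, 1 fell and 0 rose (limma, 4 lower and 0 higher unadjusted). Their median was -0.28 and 10 of 12 estimates lay below 0, where 54% of all genes had one. The gene that fell was Pigr, the polymeric immunoglobulin receptor, from 10.45 and 10.48 in FF to 7.97 and 8.04 in KO, a drop of 2.46 on the log2 scale (log2 fold change -2.46 ± 0.11, limma adjusted p = 0.00297; from 0.134 to 0.238 without any single array, 0.0305 with all probe sets tested). Transcription factors and receptors known to act on amino acid catabolism in liver had 0 calls of 12 in limma (5 lower and 0 higher unadjusted, beside the same 7.6% and 9.38%), a median of -0.26 and 10 estimates below 0. Atf4, a stress-responsive factor, was at -0.73 ± 0.15 (limma adjusted p = 0.0919), and Cebpa, a hepatocyte transcription factor, at -0.56 ± 0.12 (limma adjusted p = 0.0876).

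**Figure D4:**
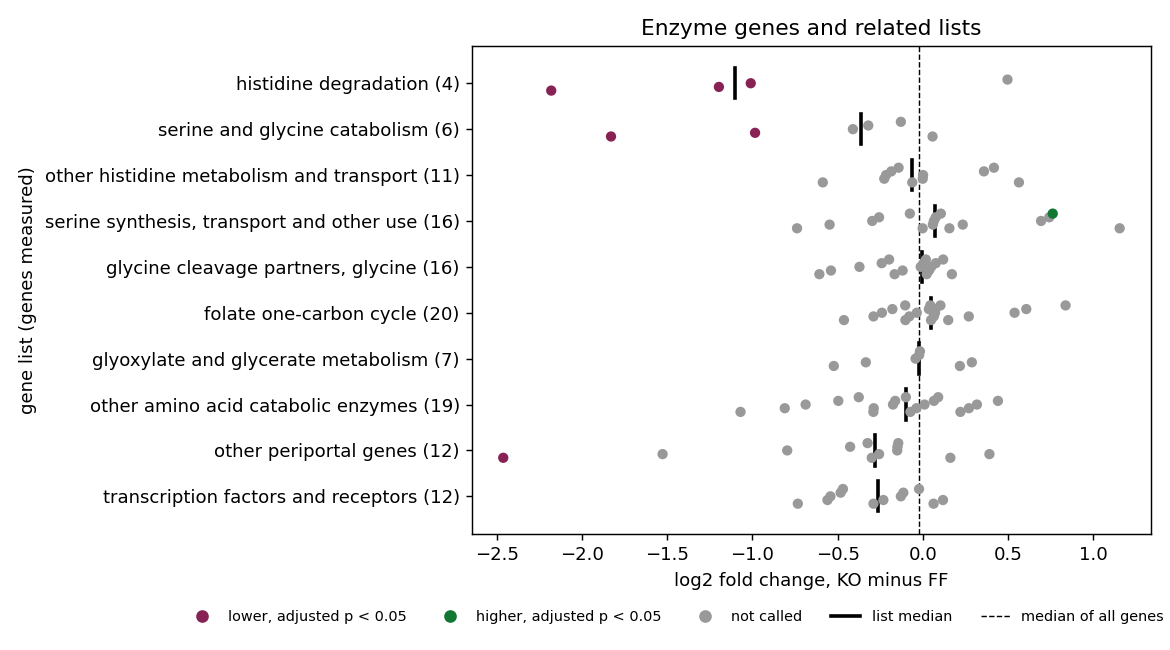
Log2 fold change of KO minus FF (horizontal axis) of every measured gene in the enzyme lists and related lists, one point a gene, coloured where the limma adjusted p was under 0.05, with list medians as black bars and the median of all genes as a dashed line. The histidine enzymes have a median of -1.10 and the serine and glycine enzymes one of -0.36, while the medians of the other lists lie between -0.28 and 0.07.

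Hepatocyte markers had a median log2 fold change of -0.07 over 6 genes, with 5 estimates below 0 and no call (limma, 1 lower unadjusted). Their summed linear level was 24178 and 23954 in FF and 22735 and 23125 in KO. Several lists of markers of other liver cells had higher sums in KO. Stellate cell markers had 2 of 6 called, Col1a1 at 1.51 ± 0.12 and Reln at 0.91 ± 0.12 (0 lower and 4 higher unadjusted). Their summed linear level ran from 1176 to 1357 in FF and from 2073 to 2476 in KO. The 5 cholangiocyte markers summed to 138 and 224 in FF and to 534 and 393 in KO. The 7 Kupffer cell and macrophage markers summed to 664 and 693 in FF and to 1333 and 923 in KO. In either list 0 were called (4 higher in each unadjusted). Linear sums weigh the brightest genes most, Dcn among the stellate and Spp1 among the cholangiocyte markers. Median log2 fold changes were 0.87 for the stellate list, with Acta2 at 0.03, 1.34 for the cholangiocyte list and 0.82 for the Kupffer cell and macrophage list. Sums of the 5 sinusoidal endothelial markers were 731 and 675 in FF and 821 and 863 in KO (0 called, 2 higher unadjusted). Lymphocyte markers summed to 56.8 and 59.5 in FF and to 97.8 and 60.0 in KO (0 of 5 called, 1 higher unadjusted), with Cd3e and Ms4a1 below the background guide. Their median log2 fold change was -0.04, with 4 of the 5 estimates below 0 and only that of Ptprc above, at 0.89 ± 0.24. Of 3 exocrine pancreas markers Cpa1 and Pnlip lay below it and 0 were called or passed unadjusted. The part of these other cells in the enzyme results was not tested.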

How the data were processed

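The authors deposited log2 values per array. The submitters' processing notes name RMA and Affymetrix Expression Console, without a version. RMA gives the arrays a common distribution, which hides any change in total RNA per cell, and folds of dim probe sets come out compressed. Their base was read off a second table that the authors deposited, which holds, per the file headers, log2 group averages and a signed fold change, a score here, for mm10 annotation. The sources used here do not give how those averages were made. Over all genes, its FF averages lay a median of 0.67 above the FF means of the array values on the log2 scale. For Ftcd its FF average was the lower, at 8.02 against 8.52. Per the labels, RNA was column-extracted and biotin-labelled.

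Gene symbols came from that table: of 41345 probe sets 29945 had a single symbol, giving 29432 genes, with the probe set of highest mean used per gene. KO was compared with FF by limma 3.58.1 under R 4.3.3 (eBayes after lmFit, 2 residual and 3.79 prior degrees of freedom), with Benjamini-Hochberg adjustment over all genes and calls at an adjusted p under 0.05. Errors after ± are limma standard errors of log2 fold changes. The number of arrays limits the precision.

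The enzyme genes and the related lists were chosen with earlier results of these data known. Genes named by rule are all members, Polr2m and each list's called genes (up to 4 per direction). Where none was called, the rule took the pair with the largest changes above background. It also took 3 flanking genes on each side of neighbouring members, and the 3 genes most like Hal and Sds. Hars2, Phgdh, Psat1, Psph, Bhmt, Tdh and marker genes that were not called were named outside this rule. Fpgs, Tf and Cela2a were not matched. Means lay above the background guide for 9 of 11 other histidine genes, 14 of 16 serine genes and 15 of 16 glycine genes. They did so for 17 of 20 folate genes and 6 of 7 glyoxylate genes. Also tried were the replicate number as a block, median centring, cyclic loess, leaving out the dimmer 50% of genes, averaging probe sets, testing all probe sets, a robust variance trend, leaving out each array, and the authors' table; Sptlc2 and Pigr were added to these after the data were seen. No scan date or batch is given, so batches could not be checked.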

Additional observations from a re-analysis of the deposited data

How the results depend on the processing

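The count of enzyme genes called lower in KO was 5 under the primary setting and under median centring, cyclic loess, averaged probe sets, the robust variance trend and without the dimmer genes. It was 0 with the replicate block, 0 with all probe sets tested and 0 without any single array, where 1 array stands for a whole group. At a limma unadjusted p under 0.05, 7 enzyme genes were lower under the primary setting, where 7.6% of all genes were. That count was also 7 under cyclic loess, averaged probe sets and the robust variance trend. It was 6 with the replicate block, median centring, all probe sets tested and without the dimmer genes. Same-numbered arrays did not deviate together (r = -0.01 over all genes), so the replicate numbers were not taken as pairs. With the replicate block 30 of all genes were called, against 522, and the adjusted p of Hal was 0.0708, that of Sds 0.0697 and that of Sptlc2 0.137, while Pigr kept its call at 0.0390. With all probe sets tested 42 were called, without the dimmer genes 850, and with the robust variance trend 975, which also called 1 enzyme gene higher (Ftcd). Without any single array 0 genes were called (3364 to 3958 at an unadjusted p under 0.05). The log2 fold change of Polr2m stayed at -1.10 with the block and with all probe sets (adjusted p = 0.104 and 0.0859), ran from -1.19 to -1.01 without any single array, and was -0.93 in the authors' deposited table. Leaving out single arrays gave -0.26 to 0.0084 for Sdsl, -0.013 to 0.13 for Shmt2, -2.47 to -1.90 for Hal, -2.08 to -1.58 for Sds, -1.31 to -1.08 for Amdhd1, -1.08 to -0.94 for Uroc1, -1.13 to -0.84 for Shmt1 and 0.45 to 0.54 for Ftcd. Sdsl turned sign without KO replicate 1 and Shmt2 without KO replicate 2, and Shmt2 was at -0.41 in the authors' deposited table. Sds minus Sdsl ran from -2.09 to -1.31 and Shmt1 minus Shmt2 from -1.11 to -0.96 over 8 alternatives each. Counts of members have no value in the authors' deposited table, which has no test. The cause of these differences was not tested. Leaving out arrays gave fewer samples, and testing all probe sets gave more features.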
